A study of Mus musculus with 10 samples.

Results

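Autophagy genes were examined in the αTC1 line, which was established from a mouse tumour of glucagon-producing pancreatic α cells, after exposure to the androgen receptor antagonist enzalutamide. The set held 38 of the 33212 genes in the count table, namely listed core machinery genes and cargo receptors and every gene whose symbol is Atg followed by a number. The rule uses no measured value, but the list was drawn up with earlier results of these data known. Cells of both groups were the same line in low-glucose medium, and received either 10 µM enzalutamide for 48 h (5 libraries) or the solvent DMSO for the same time (5 libraries). Polyadenylated RNA was sequenced, with total deposited counts of 59557697 to 67406939 per enzalutamide library and 64557371 to 68603842 per DMSO library. An exact two-sided permutation test of these totals gave p = 0.262 (5 libraries per group). The labels call the libraries biological replicates without saying whether they were separate cultures, so the p-values measure only the spread between these libraries.

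Autophagy encloses cytoplasm and organelles in a double membrane, the autophagosome, which fuses with lysosomes. The ULK kinase complex starts the process, and a class III phosphatidylinositol 3-kinase complex marks the membrane with the lipid PI3P. WIPI proteins bind PI3P, and ATG2 and ATG9 proteins act in the supply of lipids to the membrane. A pair of ubiquitin-like reactions then attaches ATG8 proteins (the LC3 and GABARAP families) to the membrane, where receptors such as p62 dock their cargo. Much of the regulation acts on proteins and not on transcripts. In islets the pathway is known for the removal of damaged mitochondria and the turnover of secretory granules.

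The libraries carried the transcripts of α cells. Of 9 α cell markers 8 were detected, with a summed level of 11431 to 12737 CPM (counts brought to one library size) in enzalutamide and 19393 to 20631 CPM in DMSO, most of it from the glucagon gene Gcg; Gc was at 0. Of 5 β cell markers Ins1 and Pdx1 had 0 counts in all libraries, and the list summed to 1.01 to 2.19 CPM in enzalutamide and 1.11 to 2.84 CPM in DMSO, mostly from Mafa and Ins2. Sst and Ppy were at 0. Leukocyte markers summed to 0.640 to 0.984 CPM in enzalutamide and 0.395 to 1.39 CPM in DMSO, all from Cd68, with Ptprc and Cd3e at 0. Endothelial markers summed to 0.176 to 0.540 CPM in enzalutamide and 0.134 to 0.592 CPM in DMSO, with Cdh5 at 0. Fibroblast markers summed to 7.23 to 9.19 CPM in enzalutamide and 5.62 to 6.54 CPM in DMSO, mostly from Pdgfra, and acinar and duct markers to 14.7 to 18.3 CPM in enzalutamide and 16.9 to 19.3 CPM in DMSO, with Pnlip and Krt19 at 0. The part of these markers in the results was not tested. In bulk RNA, fewer cells of a type and less RNA per cell cannot be told apart.

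Of the 38 genes 37 had enough counts to test. Wipi1, a PI3P-binding protein, had 0 counts in all 10 libraries, which allows at most 0.0437 to 0.0504 CPM at these depths, counting error only. The groups were compared with the quasi-likelihood test of edgeR, with p-values adjusted by Benjamini-Hochberg over all 14156 genes tested. At a threshold of 0.05 on the adjusted p, enzalutamide had 11 autophagy genes higher and 3 lower. These 14 are 37.8% of the autophagy genes tested, against 37.8% of all genes tested, so the share called was that of the table as a whole. By direction, 29.7% of the autophagy genes were higher against 19.0% of all genes, and 8.11% were lower against 18.8% of all genes. The genes called higher in the whole table were 50.3% of all calls, or 60.7% with libraries scaled to total counts alone, a scaling under which 11 autophagy genes were higher and 1 was lower, against 23.2% higher and 15.1% lower of all genes.

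The changes were small. The median log2 fold change of the 37 genes was 0.04, against 0.01 for all genes, and the median absolute value was 0.11, against 0.16 for all genes. Calcoco1 and Atg4c were the 2 autophagy genes with an absolute log2 fold change of at least 0.3, a size that 25.1% of all genes reached. In 6 autophagy genes, 16.2% of those tested, the 5 enzalutamide values did not overlap the 5 DMSO values, against 26.8% of all genes. Enzalutamide lay above DMSO in 5 of these, Calcoco1, Sqstm1, Uvrag, Atg13 and Map1lc3b, and below it in Tax1bp1. The median coefficient of variation between libraries was 5.49% in enzalutamide and 4.46% in DMSO for autophagy genes, and 7.34% in enzalutamide and 6.35% in DMSO for all genes. Enzalutamide libraries also differed by transcript length, among genes of at least 10 CPM. Transcripts under 1500 bases had a median log2 deviation from the group mean of 0.10 in library 2 and -0.14 in library 5. Transcripts of at least 5000 bases had -0.07 and 0.07. In DMSO the short transcripts had -0.04 to 0.04.

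**Figure D1:**
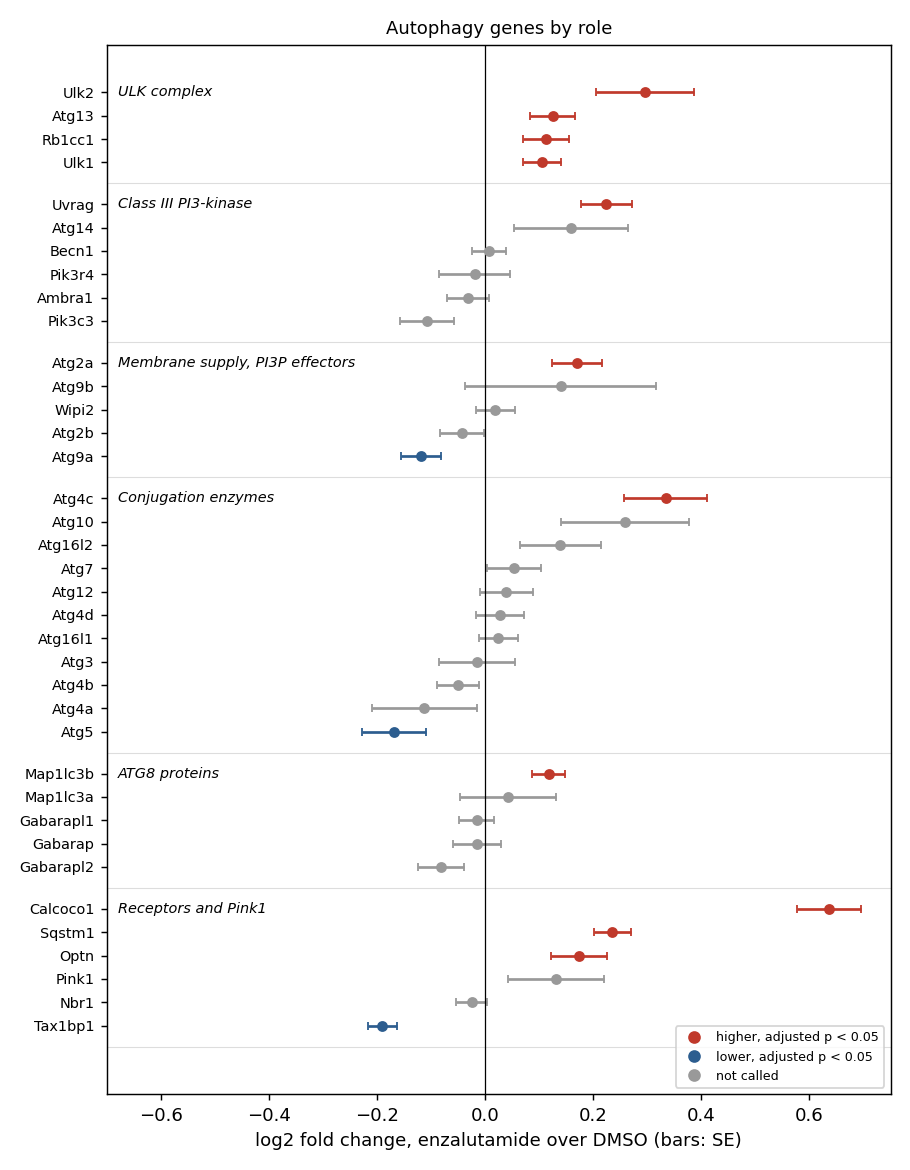
Log2 fold change, enzalutamide over DMSO, of 37 autophagy genes (horizontal axis) grouped by role from top to bottom; bars are the SE, red marks genes called higher, blue genes called lower, and grey marks genes that were not called. The 4 genes of the ULK complex all lie right of 0, and Calcoco1 stands farthest from 0 at 0.64.

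By role, the initiation genes had 6 higher and 1 lower of 15 tested, the conjugation genes 2 higher and 1 lower of 16, and the receptors together with Pink1 3 higher and 1 lower of 6. The shares higher were 40% for initiation, 12.5% for conjugation and 50% for receptors, against 19.0% of all genes. The shares lower were 6.67%, 6.25% and 16.7% in that order, against 18.8% of all genes. The median log2 fold changes were 0.10 for initiation, 0.03 for conjugation and 0.15 for receptors. The difference between roles was not tested. With trends with transcript GC content and length removed, 7 autophagy genes were higher and 5 lower, of which 2 higher and 3 lower were initiation genes. Higher calls thus went from 11 to 7 autophagy genes, and from 2696 to 2492 of all genes (19.0% to 17.6%). Lower calls went from 3 to 5 autophagy genes, and from 2662 to 3273 of all genes (18.8% to 23.1%). Without DMSO library 5, 1 autophagy gene was lower, against 17.1% of all genes, and without DMSO library 3, 3 initiation genes were higher, against 17.2% of all genes.

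The upstream sequences of Calcoco1, Sqstm1, Tax1bp1 and Atg5 are shown because the first 3 are the genes with the lowest adjusted p and the last has an E-box beside its start. They are the 250 bases before the annotated transcript start, from RefSeq on GRCm38.p6, read 5′ to 3′ on the gene's own strand. Capitals mark the GC box GGGCGG on either strand, to which factors of the SP family bind, and the E-box CACGTG, which reads the same on both strands and is the core of sites bound by TFEB, a regulator of lysosome and autophagy genes.
Calcoco1 (chr15:102722179-102722428, minus strand): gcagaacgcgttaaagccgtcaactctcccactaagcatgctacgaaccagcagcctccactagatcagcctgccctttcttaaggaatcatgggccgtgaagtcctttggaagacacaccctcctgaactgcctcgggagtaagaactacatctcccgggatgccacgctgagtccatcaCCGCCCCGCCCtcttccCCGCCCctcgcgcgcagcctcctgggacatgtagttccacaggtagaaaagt
Sqstm1 (chr11:50210821-50211070, minus strand): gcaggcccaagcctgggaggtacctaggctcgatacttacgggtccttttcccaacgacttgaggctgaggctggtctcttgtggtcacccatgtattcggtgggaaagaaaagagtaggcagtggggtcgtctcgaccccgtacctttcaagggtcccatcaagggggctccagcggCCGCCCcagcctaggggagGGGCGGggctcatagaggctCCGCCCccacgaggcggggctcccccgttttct
Tax1bp1 (chr6:52713479-52713728, plus strand): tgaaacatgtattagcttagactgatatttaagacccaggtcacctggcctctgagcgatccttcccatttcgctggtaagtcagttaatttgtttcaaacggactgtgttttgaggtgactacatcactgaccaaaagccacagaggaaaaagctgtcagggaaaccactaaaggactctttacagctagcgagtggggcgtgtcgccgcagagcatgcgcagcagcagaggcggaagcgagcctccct
Atg5 (chr10:44268089-44268338, plus strand): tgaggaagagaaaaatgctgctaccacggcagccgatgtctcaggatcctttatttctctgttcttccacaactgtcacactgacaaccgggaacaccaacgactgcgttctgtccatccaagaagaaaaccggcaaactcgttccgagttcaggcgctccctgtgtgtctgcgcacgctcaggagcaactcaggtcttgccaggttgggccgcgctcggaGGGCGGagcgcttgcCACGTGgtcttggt
The Calcoco1 and Sqstm1 sequences each held 3 GC boxes, 2 of them overlapping in Calcoco1. The Tax1bp1 sequence, the first of 2 windows listed for that gene, held neither motif in the bases shown. The shares below search the whole of both windows, and a match in either counts Tax1bp1 as having the GC box. The Atg5 sequence held 1 GC box and 1 E-box.

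Windows of 300 bases, 250 before and 50 after the start, were found for 32 of the 38 autophagy genes and for 27025 genes in all, and 9912 of the tested genes had one. The E-box CACGTG occurred in 4 of the 32 windows (12.5%), those of Atg14, Atg3, Atg5 and Atg7, against 8.09% of all genes and 11.6% of tested genes. Its longer form TCACGTGA occurred in Atg3, 3.12% of the 32, against 1.12% of all genes and 2.23% of tested genes, and the CLEAR form of 10 bases, which contains both, occurred in 0 of 32 against 0.37% of all genes and 0.858% of tested genes. Of the 4 genes with an E-box, Atg5 was lower in enzalutamide and the other 3 were not called. Of all genes tested 37.8% were called and 18.8% were lower, and a link between the motif and the calls was not tested. The motif TGATGNAA, bound by ATF4 with C/EBP factors, occurred in 0 of 32 windows against 4.51% of all genes and 2.72% of tested genes, and TGTTTAC, bound by FOXO factors, in 0 of 32 against 4.05% of all genes and 3.18% of tested genes. GGGCGG occurred in 23 of 32 windows (71.9%), against 38.2% of all genes and 68.6% of tested genes, and CCAAT in 9 of 32 (28.1%), against 41.1% of all genes and 44.0% of tested genes. All motifs were searched on both strands, and none of these matches shows that a factor binds there.

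Receptors held the largest change among the autophagy genes. Calcoco1 encodes a coiled-coil protein described in human cells as a receptor for endoplasmic reticulum and Golgi (chromosome 15, 102706777 to 102722178 of GRCm38/mm10). It was measured at 28.6, 30.9, 26.7, 27.5 and 29.6 CPM in enzalutamide libraries 1 to 5, against 19.4, 18.8, 16.5, 19.6 and 17.9 CPM in DMSO libraries 1 to 5. Every enzalutamide library was above every DMSO library. The means were 28.7 ± 1.67 CPM in enzalutamide and 18.5 ± 1.26 CPM in DMSO (SD, n = 5 each), a 1.55-fold difference (log2 fold change 0.64, SE 0.0592, adjusted p = 2.36e-07).

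Sqstm1 encodes p62, the receptor that binds ubiquitinated cargo and is itself degraded with it (chromosome 11, 50199366 to 50210827). Its levels were 317, 353, 318, 326 and 306 CPM in enzalutamide libraries 1 to 5, against 271, 277, 277, 278 and 273 CPM in DMSO libraries 1 to 5. The groups did not overlap, and enzalutamide library 2 was the highest of all. Means were 324 ± 17.8 CPM in enzalutamide and 275 ± 3.08 CPM in DMSO (SD, n = 5 each), a 1.18-fold difference (log2 fold change 0.24, SE 0.0346, adjusted p = 3.74e-05). Exons of Sqstm1 overlap those of Mrnip on the opposite strand by 580 bases, and whether the counts used strand is not given in the sources used here. Mrnip had a mean count of 315.5 against 19710 for Sqstm1.

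Optn encodes optineurin, a receptor for ubiquitinated mitochondria and bacteria. Library values were 34.1, 38.3, 39.7, 40.3 and 42.3 CPM in enzalutamide libraries 1 to 5, against 34.4, 34.9, 34.8, 34.3 and 34.3 CPM in DMSO libraries 1 to 5. Enzalutamide library 1 lay below all DMSO libraries and the other 4 above them, and the DMSO libraries were close together. The log2 fold change was 0.17 (SE 0.0520, adjusted p = 0.0137).

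Tax1bp1, a ubiquitin-binding receptor that works with p62 and NBR1 in the clearance of protein aggregates, was the receptor that fell (chromosome 6, 52713729 to 52766780). It was measured at 244, 246, 243, 251 and 249 CPM in enzalutamide libraries 1 to 5, against 279, 275, 289, 278 and 286 CPM in DMSO libraries 1 to 5. All enzalutamide libraries were below all DMSO libraries. Means were 246 ± 3.20 CPM in enzalutamide and 281 ± 5.69 CPM in DMSO (SD, n = 5 each), 0.876-fold (log2 fold change -0.19, SE 0.0268, adjusted p = 2.35e-05). Nbr1, a receptor related to p62, was at 184 ± 4.60 CPM in enzalutamide and 187 ± 2.14 CPM in DMSO and was not called (log2 fold change -0.03, adjusted p = 0.535). Pink1, the kinase that tags damaged mitochondria for removal, was at 36.7 ± 4.46 CPM in enzalutamide and 33.5 ± 4.43 CPM in DMSO and was not called (0.13, adjusted p = 0.28).

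Per kb of exon the receptors could be ordered by level. Sqstm1 was highest, at 96.6 ± 5.30 CPM per kb in enzalutamide and 82.0 ± 0.918 CPM per kb in DMSO, and Calcoco1 lowest, at 5.00 ± 0.291 CPM per kb in enzalutamide and 3.22 ± 0.220 CPM per kb in DMSO. Tax1bp1 had 24.7 ± 0.321 CPM per kb in enzalutamide and 28.2 ± 0.569 CPM per kb in DMSO, and Nbr1 26.8 ± 0.669 CPM per kb in enzalutamide and 27.3 ± 0.312 CPM per kb in DMSO. The order of Tax1bp1 and Nbr1 depended on the length used: per kb of the longest annotated transcript Tax1bp1 was above Nbr1 in both groups, at 58.0 against 38.4 CPM per kb in enzalutamide and 66.2 against 39.1 CPM per kb in DMSO. Pink1, at 13.7 ± 1.67 CPM per kb in enzalutamide and 12.5 ± 1.66 CPM per kb in DMSO, and Optn, at 10.4 ± 0.812 CPM per kb in enzalutamide and 9.20 ± 0.0717 CPM per kb in DMSO, lay between these and Calcoco1.

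**Figure D2:**
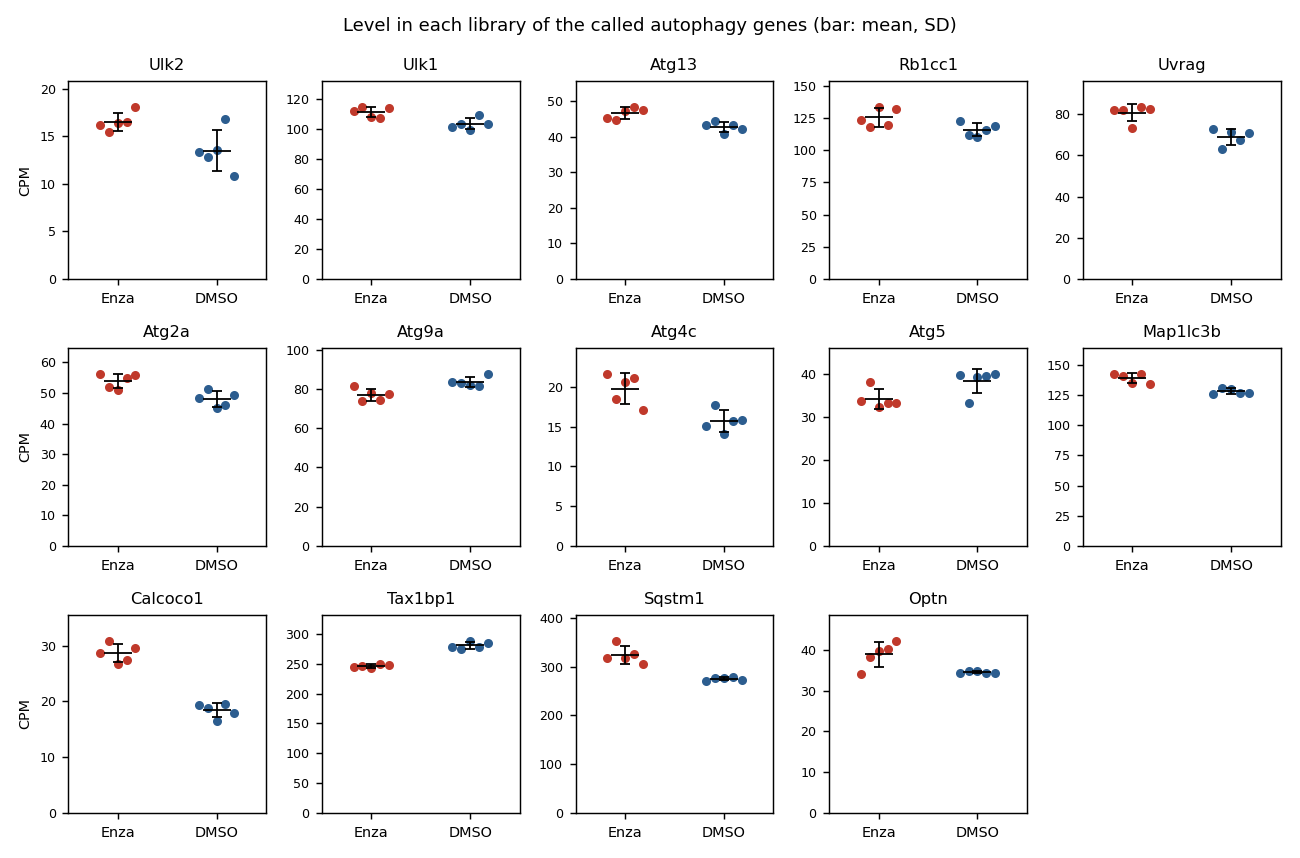
CPM in each library (points) with mean and SD (bars) of the 14 autophagy genes called, with enzalutamide on the left and DMSO on the right of each panel and each vertical axis starting at 0. Calcoco1 and Tax1bp1 have no overlap between the groups, in opposite directions, while Atg5 has 1 library in each group near the values of the other group.

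All 4 genes of the ULK complex that were measured were higher in enzalutamide, each by a small amount, against 19.0% of all genes. Ulk2, one of the kinases, was measured at 16.2, 15.5, 16.3, 16.5 and 18.1 CPM in enzalutamide libraries 1 to 5, against 13.4, 12.8, 13.5, 16.8 and 10.8 CPM in DMSO libraries 1 to 5. DMSO library 4 lay within the range of the enzalutamide values and the other DMSO libraries below them (log2 fold change 0.30, SE 0.0912, adjusted p = 0.0162). Ulk1, the kinase that phosphorylates beclin 1 and ATG14, was measured at 112, 115, 108, 107 and 114 CPM in enzalutamide libraries 1 to 5, against 102, 103, 99.5, 109 and 103 CPM in DMSO libraries 1 to 5. DMSO library 4 overlapped the enzalutamide values (log2 fold change 0.10, SE 0.0348, adjusted p = 0.0247).

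Atg13, a regulatory subunit of the complex, was measured at 45.2, 44.7, 47.2, 48.3 and 47.6 CPM in enzalutamide libraries 1 to 5, against 43.2, 44.5, 40.8, 43.2 and 42.0 CPM in DMSO libraries 1 to 5, with no overlap between groups although the highest DMSO and the lowest enzalutamide value were close (log2 fold change 0.12, SE 0.0416, adjusted p = 0.0248). Rb1cc1 encodes FIP200, the scaffold of the complex. Its levels were 124, 118, 133, 119 and 132 CPM in enzalutamide libraries 1 to 5, against 123, 112, 110.3, 116 and 119 CPM in DMSO libraries 1 to 5. Its groups overlapped in several libraries (log2 fold change 0.11, SE 0.0419, adjusted p = 0.0432). The calls of Ulk1, Atg13 and Rb1cc1 ended when trends with transcript GC content and length were removed, leaving log2 fold changes of 0.0051 for Ulk1 (adjusted p = 0.915), 0.097 for Atg13 (adjusted p = 0.0678) and 0.076 for Rb1cc1 (adjusted p = 0.108). They also ended when single libraries were left out, with adjusted p up to 0.0684 for Ulk1 and 0.0683 for Atg13, both without DMSO library 3, and 0.127 for Rb1cc1 without enzalutamide library 3.

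Among 6 genes of the class III PI3-kinase, Uvrag, a beclin 1 partner that also acts on endosomes, was the one that rose (chromosome 7, 98885021 to 99141141). It was measured at 81.9, 82.2, 73.3, 83.6 and 82.6 CPM in enzalutamide libraries 1 to 5, against 72.9, 62.9, 71.5, 67.5 and 70.7 CPM in DMSO libraries 1 to 5. All enzalutamide values were above all DMSO values, the closest being enzalutamide library 3 and DMSO library 1. Means were 80.7 ± 4.20 CPM in enzalutamide and 69.1 ± 3.98 CPM in DMSO (SD, n = 5 each), a 1.17-fold difference (log2 fold change 0.22, SE 0.0464, adjusted p = 0.000953). The antisense gene Gm45187 overlaps exons of Uvrag by 1589 bases.

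Uvrag alone makes 16.7% of the PI3-kinase genes higher, against 19.0% of all genes. The other 5 PI3-kinase genes were not called. Becn1, beclin 1, was at 141 ± 3.57 CPM in enzalutamide and 141 ± 3.60 CPM in DMSO (log2 fold change 0.01, adjusted p = 0.89), and its values spanned the same range in both groups. Exons of Becn1 overlap those of Cntd1 on the opposite strand by 3104 bases, but Cntd1 had a mean count of 55 against 9281 for Becn1. Pik3c3, the catalytic subunit, was at 39.6 ± 1.74 CPM in enzalutamide and 42.7 ± 2.71 CPM in DMSO (-0.11, adjusted p = 0.0992). Pik3r4, its regulatory kinase-like subunit, was at 18.5 ± 0.889 CPM in enzalutamide and 18.8 ± 1.70 CPM in DMSO (-0.02, adjusted p = 0.848). Atg14, the subunit that directs the complex to autophagosomes, was at 11.7 ± 1.24 CPM in enzalutamide and 10.5 ± 1.72 CPM in DMSO (0.16, adjusted p = 0.267), and Ambra1, a beclin 1 regulator, at 79.5 ± 3.71 CPM in enzalutamide and 81.3 ± 2.57 CPM in DMSO (-0.03, adjusted p = 0.559).

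Of 5 genes for membrane supply and PI3P binding that could be tested, 1 was higher and 1 was lower. Each is 20%, against 19.0% of all genes higher and 18.8% lower. Atg2a, a lipid transfer protein, was measured at 56.3, 51.9, 51.1, 55.0 and 55.8 CPM in enzalutamide libraries 1 to 5, against 48.3, 51.4, 45.2, 46.0 and 49.3 CPM in DMSO libraries 1 to 5. Enzalutamide library 3 was just below DMSO library 2, and the other libraries were apart (log2 fold change 0.17, SE 0.0460, adjusted p = 0.0073). Removal of the GC and length trends left a log2 fold change of 0.05 (adjusted p = 0.419). Atg9a encodes a lipid scramblase on the vesicles that seed the autophagosome. Library values were 81.7, 73.9, 77.6, 74.1 and 77.1 CPM in enzalutamide libraries 1 to 5, against 83.6, 82.8, 82.0, 81.5 and 87.6 CPM in DMSO libraries 1 to 5. Enzalutamide library 1 overlapped DMSO (log2 fold change -0.12, SE 0.0372, adjusted p = 0.0173). The noncoding gene Gm29253 shares 1832 exonic bases with Atg9a on the same strand. The call of Atg9a ended with total-count scaling (adjusted p = 0.0881) and without DMSO library 5 (adjusted p = 0.0552). Neither Atg2b, the paralog of Atg2a (-0.04, adjusted p = 0.442), nor Wipi2, which recruits ATG16L1 to PI3P (0.02, adjusted p = 0.728), was called. Atg9b was the least abundant member tested, at 2.83 ± 0.604 CPM in enzalutamide and 2.57 ± 0.456 CPM in DMSO (log2 fold change 0.14, adjusted p = 0.585).

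Of 11 conjugation enzymes 1 was higher and 1 was lower, 9.09% each, against 19.0% and 18.8% of all genes. Atg4c, a protease that trims and removes ATG8 proteins (chromosome 4, 99193934 to 99259787), was measured at 21.6, 18.5, 20.6, 21.1 and 17.1 CPM in enzalutamide libraries 1 to 5, against 15.0, 17.8, 14.0, 15.7 and 15.9 CPM in DMSO libraries 1 to 5. Enzalutamide library 5 was below DMSO library 2, and the other enzalutamide libraries were above all of DMSO. Means were 19.8 ± 1.94 CPM in enzalutamide and 15.7 ± 1.38 CPM in DMSO (SD, n = 5 each), a 1.26-fold difference (log2 fold change 0.33, SE 0.0764, adjusted p = 0.00213). The other proteases of this family were not called, with log2 fold changes of -0.11 for Atg4a (adjusted p = 0.399), -0.05 for Atg4b (adjusted p = 0.339) and 0.03 for Atg4d (adjusted p = 0.672). Atg4a has a near-identical copy, Atg4a-ps, and exons of Atg4d overlap those of Kri1 on the opposite strand by 1405 bases, so both are less certain. Kri1 had a mean count of 3960 against 4510 for Atg4d.

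Atg5, which is joined to ATG12 and helps place ATG8 proteins on lipid, was measured at 33.6, 38.0, 32.3, 33.2 and 33.1 CPM in enzalutamide libraries 1 to 5, against 39.7, 33.3, 39.1, 39.5 and 39.9 CPM in DMSO libraries 1 to 5. In each group library 2 stood apart, enzalutamide library 2 near the DMSO values and DMSO library 2 near the enzalutamide values. The log2 fold change was -0.17 (SE 0.0586, adjusted p = 0.0302). This call ended in 12 of 22 alternatives, including the omission of any 1 of 4 DMSO libraries (1, 3, 4 and 5) or 4 enzalutamide libraries (1, 3, 4 and 5), with adjusted p up to 0.078 and log2 fold changes of -0.15 to -0.16, about as large as with all libraries. The remaining enzymes were not called. Atg12, the partner of ATG5, was at 39.1 ± 2.01 CPM in enzalutamide and 38.1 ± 1.70 CPM in DMSO (log2 fold change 0.04, adjusted p = 0.574). Atg7, the activating enzyme of both reactions, was at 24.5 ± 0.707 CPM in enzalutamide and 23.6 ± 1.12 CPM in DMSO (0.05, adjusted p = 0.438). Atg3, which passes ATG8 proteins to lipid, had a log2 fold change of -0.02 (adjusted p = 0.896). Atg10, the transfer enzyme for ATG12, was among the least abundant, at 7.46 ± 1.10 CPM in enzalutamide and 6.23 ± 0.887 CPM in DMSO (0.26, adjusted p = 0.0983). Atg16l1, which holds the ATG12 and ATG5 conjugate at the membrane, was at 103 ± 4.02 CPM in enzalutamide and 102 ± 3.37 CPM in DMSO (0.02, adjusted p = 0.65), and its paralog Atg16l2 at 19.0 ± 2.19 CPM in enzalutamide and 17.2 ± 0.784 CPM in DMSO (0.14, adjusted p = 0.16).

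Per kb of exon, mean transcript levels of the 5 ATG8 genes, the substrates of conjugation, had one order in both groups. Gabarapl1 was highest, at 128 ± 1.69 CPM per kb in enzalutamide and 129 ± 5.89 CPM per kb in DMSO, and Map1lc3a came next, at 56.3 ± 7.99 CPM per kb in enzalutamide and 54.7 ± 6.29 CPM per kb in DMSO. Gabarap followed at 42.0 ± 2.49 CPM per kb in enzalutamide and 42.5 ± 1.84 CPM per kb in DMSO and Gabarapl2 at 38.3 ± 2.51 CPM per kb in enzalutamide and 40.6 ± 0.895 CPM per kb in DMSO, a pair whose library values overlapped in both groups. Map1lc3b, whose protein LC3B is the usual marker of autophagosomes, was lowest, at 18.5 ± 0.540 CPM per kb in enzalutamide and 17.0 ± 0.306 CPM per kb in DMSO. The order of the means was the same per kb of the longest annotated transcript, but Map1lc3a, Gabarap and Gabarapl2 were then close together. They had 59.8, 57.3 and 53.2 CPM per kb in enzalutamide and 58.1, 58.0 and 56.3 CPM per kb in DMSO. The sum over the 5 genes was 283 ± 14.5 CPM per kb in enzalutamide and 284 ± 11.2 CPM per kb in DMSO, and Gabarapl1 made up 45.2% of it in enzalutamide and 45.5% in DMSO.

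**Figure D3:**
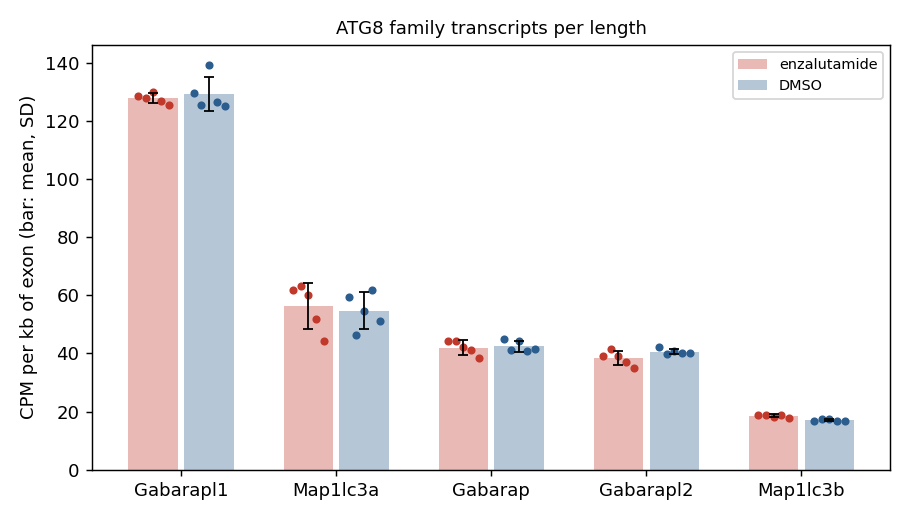
CPM per kb of exon (vertical axis) of the 5 ATG8 genes, with bars for the mean, error bars for the SD and a point for each library, enzalutamide left of DMSO in each pair. Gabarapl1 is highest in both groups, at 128 in enzalutamide and 129 in DMSO, and Map1lc3b, the 1 gene called, is lowest.

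Map1lc3b was the 1 ATG8 gene called of 5, or 20% against 37.8% of all genes (chromosome 8, 121590361 to 121598760). It was measured at 143, 141, 135, 142 and 134 CPM in enzalutamide libraries 1 to 5, against 126, 131, 130.3, 127 and 127 CPM in DMSO libraries 1 to 5. The lowest enzalutamide values lay just above the highest DMSO value, with no overlap (log2 fold change 0.12, SE 0.0310, adjusted p = 0.006). Map1lc3b has 3 processed pseudogenes of at least 98% identity over 250 bases or more (Gm12727, Gm6054 and Gm6055), with which its reads can be confused. Gabarapl2 has 2 such copies and was not called (log2 fold change -0.08, adjusted p = 0.14). The others had log2 fold changes of -0.02 for Gabarapl1 (adjusted p = 0.746), -0.02 for Gabarap (adjusted p = 0.814) and 0.04 for Map1lc3a (adjusted p = 0.754).

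**Figure D4:**
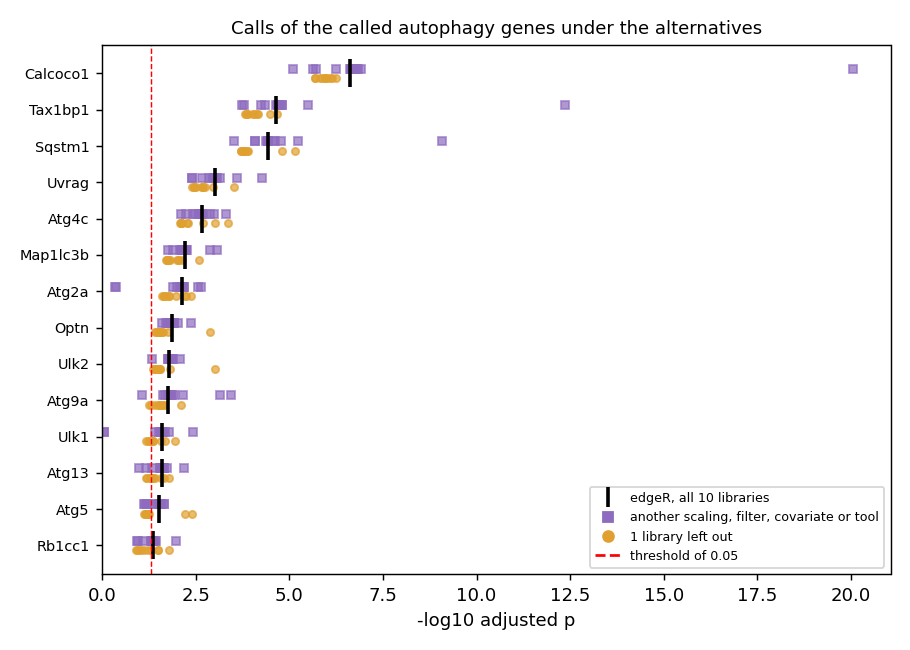
Negative log10 of the adjusted p (horizontal axis) of the 14 called genes, ordered by the test on all 10 libraries (black lines), with squares for another scaling, filter, covariate or tool, circles for 1 library left out, and a dashed line at the threshold of 0.05. For 8 genes every mark lies right of the line, and for Atg5 and Rb1cc1 many lie left of it.

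The stability of the calls differed between genes. Of the 14 called genes 8 passed in all 22 alternatives, namely Calcoco1, Sqstm1, Optn, Uvrag, Ulk2, Atg4c and Map1lc3b, which were higher, and Tax1bp1, which was lower. Their largest adjusted p in any alternative was 0.0455. How many of all called genes passed in all 22 alternatives was not counted. The others were Atg5, Rb1cc1, Atg13, Ulk1, Atg2a and Atg9a.

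Further genes of the pathway came from 4 lists with 51 genes tested, of which 14 were higher and 15 were lower, 56.9% in all against 37.8% of all genes tested. Their changes were not larger: the median absolute log2 fold change was 0.13, against 0.16 for all genes. A size of at least 0.3 was reached by 13.7%, against 25.1% of all genes. Groups did not overlap in 29.4%, against 26.8% of all genes. The median SE was 0.044, against 0.061 for all genes. Among 9 genes of autophagosome formation 4 were higher (44.4%, against 19.0% of all genes) and 0 were lower (against 18.8% of all genes). Trp53inp1, a stress protein that binds ATG8 proteins, had the largest change, at 136, 126, 136, 135 and 154 CPM in enzalutamide libraries 1 to 5, against 51.9, 54.9, 51.7, 49.4 and 49.8 CPM in DMSO libraries 1 to 5. The groups were far apart (log2 fold change 1.41, SE 0.0484, adjusted p = 6.02e-13). Wdr45, a PI3P-binding relative of WIPI proteins, had 0.34 (adjusted p = 0.0029) and Sh3glb1, a membrane-curving partner of UVRAG, had 0.15 (adjusted p = 0.00453).

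In the list of receptors for organelles and other cargo 5 of 16 genes were higher and 5 were lower. Each is 31.2%, against 19.0% of all genes higher and 18.8% lower. Stbd1, a glycogen-binding receptor, was measured at 31.2, 30.6, 29.0, 28.2 and 27.8 CPM in enzalutamide libraries 1 to 5, against 10.2, 12.0, 11.3, 11.4 and 11.3 CPM in DMSO libraries 1 to 5, with no overlap (log2 fold change 1.39, SE 0.0587, adjusted p = 9.4e-12). Bnip3, a mitochondrial receptor, was at 57.4 ± 10.1 CPM in enzalutamide and 89.7 ± 22.0 CPM in DMSO (SD, n = 5 each; log2 fold change -0.64, SE 0.136, adjusted p = 0.00112). Phb2, an inner-membrane protein of mitochondria, fell by a smaller amount, with -0.13 (adjusted p = 0.00584).

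Of 13 genes tested for fusion with lysosomes 3 were higher and 3 were lower, 23.1% each, against 19.0% and 18.8% of all genes. Vamp8, a SNARE of that step, had too few counts to test. The tethering protein Tecpr1 had -0.36 (adjusted p = 1.1e-06), the SNARE Ykt6 had -0.32 (adjusted p = 2.41e-06), and Vps16, a subunit of the HOPS tether, had 0.19 (adjusted p = 0.00163). Of 13 genes of mTORC1, which restrains the ULK complex, and AMPK, which promotes it, 2 were higher and 7 were lower. These are 15.4% and 53.8%, against 19.0% and 18.8% of all genes. Prkab1, an AMPK subunit, had -0.31 (adjusted p = 2.28e-05), and the mTORC1 subunit genes Mlst8 and Rptor had -0.27 (adjusted p = 0.000158) and -0.16 (adjusted p = 0.000796). All of these are log2 fold changes. The 12 genes named from the 4 lists passed in all 22 alternatives, but they were picked for the lowest adjusted p in the same data. The other called genes of these lists were not followed gene by gene. Counts in the lists did move. Without DMSO library 3, for example, 3 of 16 organelle and cargo receptors were higher, against 17.2% of all genes. With all libraries 5 of 16 were higher, against 19.0% of all genes. Without DMSO library 1 the count was 2, and fewer of all genes were called higher than with all libraries.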

How the data were processed

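The deposited count table held whole-number counts per gene made by the authors for 5 enzalutamide and 5 DMSO libraries, with 33212 genes. HISAT2, StringTie, DESeq2 and the mm10 build are listed in the submitters' processing notes, with no versions or roles; the strand setting is not stated in these sources. A second deposited table held the authors' library-scaled signal, in which 20039 of 20039 rows matched by a unique symbol returned whole counts within 0.01 after multiplication by a size factor per library. It served an alternative. All columns were matched to libraries by name and 0 were left unused.

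The count test was the quasi-likelihood test of edgeR 4.0.16 under R 4.3.3, with no covariate, on the 14156 genes kept by filterByExpr and with TMM scaling (trimmed mean of M values). P-values were adjusted by Benjamini-Hochberg over all genes tested, at a threshold of 0.05. The SE was obtained from the log2 fold change and the F statistic, as their ratio with F under a square root. The biological coefficient of variation was 8.39%. CPM use scaled library sizes, and every ± is an SD over libraries. No library was left out, imputed or counted as a repeat of another. The procedure was first tested on simulated data.

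Genes were matched to GENCODE M21 on GRCm38/mm10, where 31975 of 33212 identifiers (96.3%) were found, and upstream sequences to RefSeq on GRCm38.p6. The autophagy genes and the other lists were chosen with earlier results of these data known. Per-library values and full statistics were given for genes that passed, up to 6 per role, and in each other list up to 3 genes that passed with the lowest adjusted p were named. Alternatives were relative log expression (RLE) and total-count scaling, no filter, a minimum mean CPM of 1, replicate number as a block, removal of GC and length trends alone and with the block, omission of each library in turn, summed rows of equal symbol, DESeq2 1.42.0, and limma 3.58.1 as limma-voom and as limma-trend on log2 of the signal plus 1 or 8.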

Additional observations from a re-analysis of the deposited data

Results flagged for a closer look

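In 74 groups of 5 values, 2 groups for each of 37 autophagy genes, 4 had a library that stood apart from the other 4 by Dixon's test at its 95% critical value, a test that flags about 5% of groups by chance. Atg5 stood apart in both groups, with 38.0 CPM in enzalutamide library 2, against 32.3 to 33.6 CPM in the other enzalutamide libraries, and 33.3 CPM in DMSO library 2, against 39.1 to 39.9 CPM in the other DMSO libraries. With either of these libraries left out Atg5 was still called lower in enzalutamide. Atg12 was at 35.7 CPM in enzalutamide library 4 and 39.6 to 40.9 CPM in the other enzalutamide libraries. Uvrag was at 73.3 CPM in enzalutamide library 3 and 81.9 to 83.6 CPM in the other enzalutamide libraries.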

How the results depend on the processing

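Over 37 autophagy genes and 22 alternatives, 746 of 814 comparisons kept direction and side of the threshold, 36 lost the call, 4 gained it and 28 changed sign, none of these in a gene called in either fit. Counts of genes moved as follows, and the causes were not tested. With GC and length trends removed, 7 autophagy genes were higher and 5 lower, and of the initiation genes 2 were higher and 3 lower, while over all genes tested 2492 were higher and 3273 lower. With total-count scaling 1 autophagy gene was lower, as were 0 of the initiation and 0 of the conjugation genes. Without a filter on low counts 0 conjugation genes were lower. Leaving out 1 library gave 1 to 4 autophagy genes lower (1 without DMSO library 5), 3 to 6 initiation genes higher (3 without DMSO library 3), 0 to 1 initiation genes lower (0 without DMSO library 5) and 0 to 2 conjugation genes lower, a count that moved with every library but DMSO library 2.

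Whether the replicate numbers pair the libraries was not tested. Correlations of deviations were between -0.01 and 0.05 for the same number and between -0.06 and 0.05 for other numbers. Of 10 libraries 5 correlated best with their own number. With the replicate number as a block, 2659 genes were higher and 2637 lower in the whole table, 11 autophagy genes were higher and 2 lower, and 0 conjugation genes were lower, with a log2 fold change of -0.17 for Atg5 (adjusted p = 0.0627). The block together with removal of GC and length trends gave 7 autophagy genes higher and 2 lower. It also gave 2 initiation genes higher, 0 conjugation genes lower and 9 of the other pathway genes higher, against 14. Over the whole table fewer genes were higher and more were lower than without either step. Higher calls were then 43.2% of all calls, against 50.3% without either step.

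Signs changed in genes that were not called. With total-count scaling the log2 fold changes were 0.018 for Gabarap, 0.0096 for Nbr1, 0.019 for Atg3, 0.0020 for Ambra1, 0.019 for Gabarapl1 and 0.014 for Pik3r4. With GC and length trends removed they were -0.063 for Map1lc3a, -0.016 for Wipi2 and -0.038 for Atg4d, and with the block as well -0.063 for Map1lc3a, -0.016 for Wipi2 and -0.042 for Atg4d. Leaving out 1 library gave -0.036 to 0.016 for Gabarap, -0.0054 to 0.021 for Becn1, -0.071 to 0.035 for Atg3, -0.011 to 0.12 for Map1lc3a, -0.0013 to 0.035 for Wipi2, -0.027 to 0.013 for Gabarapl1, -0.0083 to 0.058 for Atg4d and -0.047 to 0.019 for Pik3r4. Genes that gained a call were Atg2b and Ambra1 with GC and length trends removed, Atg16l2 without enzalutamide library 3 and Gabarapl2 without enzalutamide library 2. Total-count scaling moved the median of all genes to 0.04, against 0.01. The genes of low level were the least precise. The SE of the log2 fold change was 0.177 for Atg9b, 0.118 for Atg10 and 0.106 for Atg14, against a median of 0.05 over the 37 genes. Counting error alone gives 0.0685 for Atg9b, 0.0432 for Atg10 and 0.0339 for Atg14, which is less than each SE. The source of the rest was not tested.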
